A study of Mus musculus with 4 samples.

Results

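The 10 enzymes that carry squalene to cholesterol were examined in mouse embryonic fibroblasts that lack Men1, the gene of the nuclear scaffold protein menin. Probe sets were taken where the platform annotation gave exactly 1 gene symbol and that symbol was an enzyme of this stretch, and no probe set of these genes was left out. This gave 14 probe sets for 10 genes, of 12422 probe sets and 8251 named genes in all. The genes were chosen by pathway membership, but with knowledge of the Men1 and vector signals themselves: an earlier look at these arrays had shown lower cholesterol synthesis signals with Men1. Their differences between the groups are therefore given as a description, with no test. The study set 2 arrays of Men1 knockout cells complemented with Men1 beside 2 arrays of Men1 knockout cells given vector, which are titled Men1-/- (hereafter Men1 and vector). Both groups carry the knockout, in a mixed FVB;129Sv background, and were cultured in DMEM with 10% FBS. Cells were seeded at 70% density and harvested after 24 h. The labels give neither the number of clones or embryos behind the cells nor the promoter that drove the introduced Men1, and nothing says that the arrays of a group came from separate cultures, so the spread between them may be technical.

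Cholesterol is built from acetyl-CoA through mevalonate and squalene, and the enzymes described here act on the later stretch, in the membrane of the endoplasmic reticulum. Squalene is first oxidised and folded into lanosterol, from which methyl groups are then removed and double bonds moved or reduced until cholesterol is left. In mammalian cells the genes of this pathway are textbook targets of the SREBP transcription factors, which act with the promoter factors NF-Y and Sp1 and are activated when membrane sterol is low. This is background and was not measured here.

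Promoters of these genes are shown because their letters are not array values. The genes and motifs were nonetheless chosen with earlier results of these data known, and the printed promoters by the array differences. RefSeq promoter entries (GRCm38.p6, 250 bases before to 50 after a transcription start) matched 9 of the 10 genes, with 3 starts for Dhcr7 and 1 for each other gene. Printed below, 5' to 3' on the strand of the gene, are the 250 bases before the start for the 4 matched genes whose brightest probe set differed most between the groups and for Ebp, which differed least. Capitals mark matches on either strand to CCAAT (written ATTGG on the other strand), the letters that NF-Y binds, and to GGGCGG (written CCGCCC on the other strand), the letters that Sp1 binds.
Lss, chr10:76531355-76531604, plus strand: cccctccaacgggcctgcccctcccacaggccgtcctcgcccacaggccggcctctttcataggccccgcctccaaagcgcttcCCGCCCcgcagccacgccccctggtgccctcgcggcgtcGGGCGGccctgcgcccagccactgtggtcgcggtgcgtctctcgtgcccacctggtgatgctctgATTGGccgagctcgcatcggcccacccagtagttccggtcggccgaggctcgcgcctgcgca
Msmo1, chr8:64733579-64733828, minus strand: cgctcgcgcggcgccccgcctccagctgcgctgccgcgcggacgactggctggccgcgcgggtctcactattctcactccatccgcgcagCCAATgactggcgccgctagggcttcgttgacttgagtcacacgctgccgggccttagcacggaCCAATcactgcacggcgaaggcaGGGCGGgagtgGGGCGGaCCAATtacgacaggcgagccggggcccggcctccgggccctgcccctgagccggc
Cyp51, chr5:4104698-4104947, minus strand: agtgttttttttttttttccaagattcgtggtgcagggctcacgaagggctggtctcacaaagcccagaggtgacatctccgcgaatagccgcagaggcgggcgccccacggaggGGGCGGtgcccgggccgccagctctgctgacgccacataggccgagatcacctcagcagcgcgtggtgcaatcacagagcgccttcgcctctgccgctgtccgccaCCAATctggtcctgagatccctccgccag
Tm7sf2, chr19:6067851-6068100, minus strand: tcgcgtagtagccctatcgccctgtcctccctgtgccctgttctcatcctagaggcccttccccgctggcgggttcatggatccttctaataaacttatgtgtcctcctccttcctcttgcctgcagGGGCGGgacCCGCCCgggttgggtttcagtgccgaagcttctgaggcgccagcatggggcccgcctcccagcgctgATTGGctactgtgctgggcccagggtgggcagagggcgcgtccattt
Ebp, chrX:8193513-8193762, minus strand: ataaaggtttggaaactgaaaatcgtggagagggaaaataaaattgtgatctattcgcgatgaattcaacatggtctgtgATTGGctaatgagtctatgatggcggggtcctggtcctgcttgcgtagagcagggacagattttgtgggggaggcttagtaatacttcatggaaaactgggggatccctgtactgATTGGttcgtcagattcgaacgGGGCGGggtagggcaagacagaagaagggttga

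All 9 genes with an entry held both motifs in at least 1 of their windows. CCAAT was found in the windows of 9 of 9 genes, against 42.5% of the 6572 array genes with an entry and 41.1% of all 27025 genes in the promoter table. GGGCGG was likewise found for 9 of 9 genes, against 63.1% of the array genes and 38.2% of all genes. Both were present in 1 window for 24.7% of the array genes. High shares were not particular to these enzymes: of 7 genes of the earlier stretch, mevalonate to squalene, with an entry, 6 held CCAAT and 5 held GGGCGG. Counted by promoter, 9 of 11 held CCAAT and 10 of 11 held GGGCGG. Among the 8408 promoters of array genes the shares were 37.0% and 57.1%, and among all 32851 promoters 37.4% and 35.7%. The Dhcr7 starts differed, since the first held only GGGCGG, the second neither, and the third 2 of CCAAT and 3 of GGGCGG. At least 2 CCAAT matches were found for 5 of the 9 genes, against 16.2% of the array genes. The matches are a description of these letters and not of binding. GC content differed too, with a median GC of 64% in the enzyme promoters, 59.7% in the promoters of array genes and 52.7% in all promoters. Among promoters with a GC at least that of the lowest enzyme promoter, 36.2% held CCAAT and 45.6% held GGGCGG. The median GC of that set was 56.3%, still below that of the enzyme promoters, so it does not match them in GC.

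**Figure D1:**
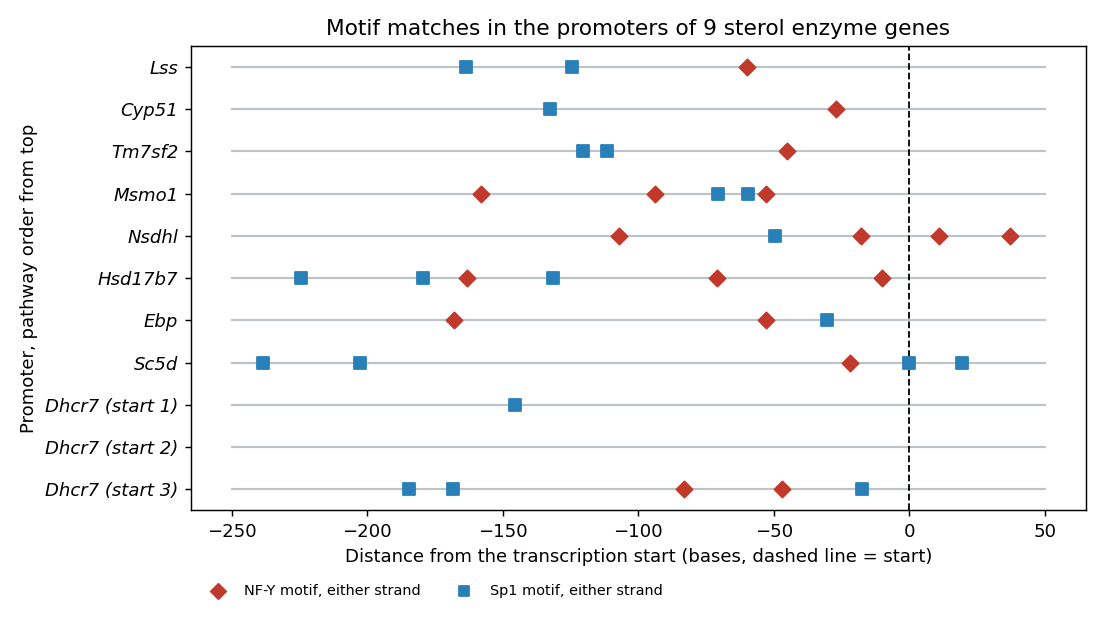
Positions of NF-Y motif (diamonds) and Sp1 motif (squares) matches on either strand, in bases from the transcription start (dashed line), for the 11 promoters of 9 sterol enzyme genes in pathway order. Ebp, whose signals differed least between the groups, held 2 NF-Y matches and 1 Sp1 match, as many NF-Y matches as the third Dhcr7 start.

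The CCAAT match nearest upstream of the start lay at -62 to -58 in Lss, -55 to -51 in Msmo1, -29 to -25 in Cyp51, -47 to -43 in Tm7sf2 and -55 to -51 in Ebp, counted from the start with no base 0. No CCAAT match overlapped a GGGCGG match. The sterol regulatory element form TCACNCCAC, searched on both strands, was in 0 of the 11 enzyme promoters and in 1.24% of all promoters. That count says only that these letters are not in these windows. Promoters with 3 CCAAT matches (Msmo1 and Hsd17b7) and with 4 (Nsdhl) belonged to genes with differences of -0.95, -0.58 and -0.63 on the log2 scale, and those with 1 to genes with differences from -0.97 (Lss) to -0.45 (Sc5d). The number of matches and the size of the difference thus had no common order in these 9 genes.

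Signals were lower with Men1 for every enzyme of the stretch. On the scale of log2(signal + 16), where each difference is Men1 minus vector, all 14 probe sets were below 0, with a median of -0.60 and a range from -0.97 to -0.08. Over all 12422 probe sets the median was -0.01, and 52.8% were below 0. Both Men1 arrays lay below both vector arrays for 11 of the 14, where 11.7% of all probe sets did so. For 9 of the 14 the difference was also larger than both differences between arrays of 1 group, where 7.0% of all probe sets did so. This contrast proposed the genes, so nothing is read from these counts. By limma no probe set passed an adjusted p of 0.05 over all 12422, none of these 14 included, and 233 (1.88%) had an unadjusted p under 0.05. The fit had 2 residual degrees of freedom.

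Of the 14 probe sets, 13 lay on all arrays above the highest of 19 control probe sets for bacterial and yeast transcripts, which are not part of mouse RNA. Those maxima were 25.9 and 27.4 in the Men1 group and 15.9 and 20 in the vector group. The exception was the dimmer of the Tm7sf2 probe sets. The single Men1 probe set read 18.8 and 22.5 with Men1, against 18.1 and 29.5 with vector, and the groups overlapped. The Men1 signals were at control level and the vector signals above the controls, but the control maxima were lower on the vector arrays. Vector replicate 1, called above its controls, had the lowest of these signals. Presence or absence of Men1 RNA in either group is therefore not read from these calls. Which part of the gene this probe set covers is not known here, so it is no check of the labels. In a culture measured as bulk RNA, fewer cells of a type and less RNA per cell cannot be told apart. Of 12 fibroblast markers, 8 were above the controls on all arrays, among 11 above them on at least 1, and Thy1 was at control level on all. Their summed signals were 11338 and 10149 with Men1, against 10053 and 12170 with vector, which overlap. Summed signals of the skeletal muscle markers Myod1, Myog, Acta1 and Tnni1 were 234.9 and 232.2 with Men1 against 353.5 and 317.6 with vector. These sums moved with the groups, which does not show that each marker did. Of the 4 markers, 3 were above the controls on all arrays. The part of muscle markers in the sterol enzyme values was not tested. No marker of that list was at control level on all arrays. Summed signals of the epithelial, endothelial, blood, adipocyte, neural and hepatocyte marker lists overlapped between the groups.

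**Figure D2:**
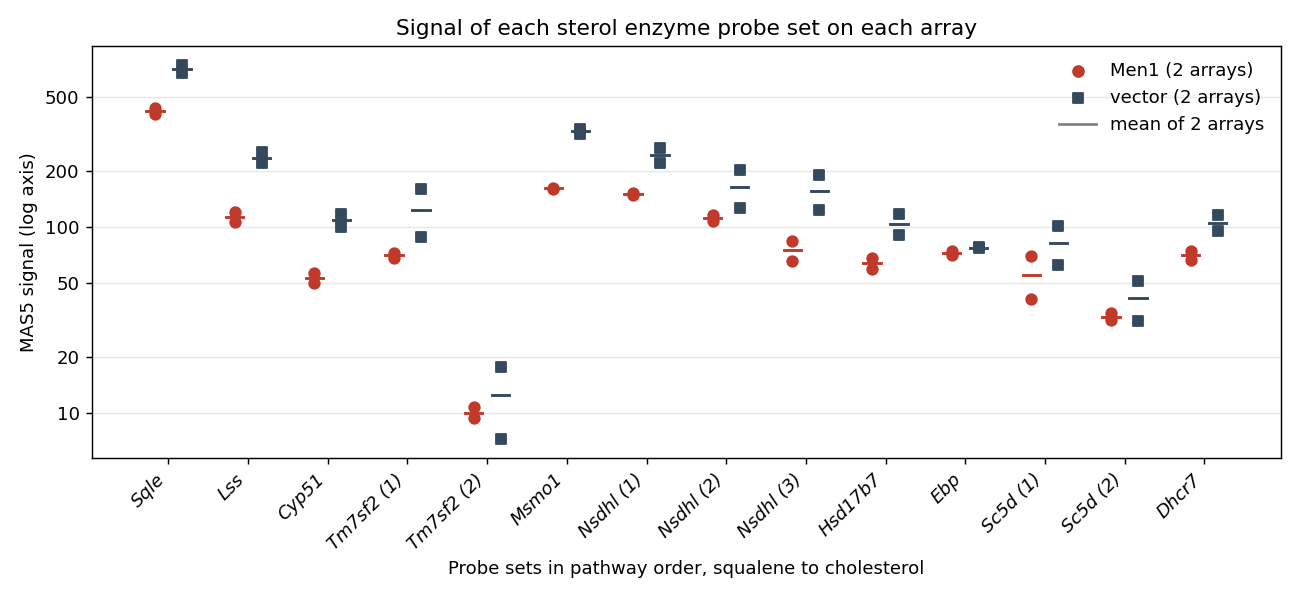
MAS5 signal (log axis) of the 14 probe sets in pathway order, with Men1 arrays as red circles left of vector arrays as dark squares, and bars at the mean of 2 arrays. The groups stand clearly apart for Lss, Cyp51 and Msmo1, nearly meet for Ebp, and overlap for both Sc5d probe sets and the dimmer Tm7sf2 probe set.

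The first enzymes make the sterol ring. Sqle, squalene epoxidase, which adds oxygen to squalene and is one of the flux-controlling enzymes of the pathway, read 404.8 and 438.4 with Men1, against 748.0 and 673.2 with vector. Its mean signal was 422 ± 23.8 with Men1 and 711 ± 52.9 with vector (SD, n = 2 each), a ratio of 0.593. Both Men1 signals lay far under the lower vector signal, and the gap was wider than the distance between arrays of either group (log2 difference -0.73, standard error (SE) 0.18).

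Lss, lanosterol synthase, closes the rings of oxidised squalene. It read 120.6 and 105.7 with Men1, against 220.4 and 252.0 with vector, a ratio of means of 0.479. Both Men1 signals were about as far below the vector signals as they were for Msmo1 (-0.97, SE 0.19). Differences between arrays of a group were 0.17 with Men1 and -0.18 with vector (replicate 1 minus replicate 2), so the Lss signal was steady within groups.

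Removal of methyl groups from lanosterol begins with Cyp51, a cytochrome P450 demethylase and the target of azole drugs in fungi. It read 49.8 and 56.3 with Men1, against 117.9 and 99.3 with vector, a ratio of means of 0.489 (log2 difference -0.85, SE 0.19). The groups were apart, with vector replicate 1 the highest. Because these signals are low, the value depends on the constant added before the log: with 64 in place of 16 it was -0.56.

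Tm7sf2, a reductase, acts on the double bond that Cyp51 leaves, an activity that the nuclear envelope protein Lbr also has. Its brighter probe set read 68.3 and 72.4 with Men1, against 88.4 and 159.6 with vector (-0.65, SE 0.29). The groups did not overlap, but the vector arrays differed by -0.75, more than the groups did, and the higher of them set the size of the difference. Without vector replicate 2 it was -0.27, and without vector replicate 1 it was -1.02. The dimmer Tm7sf2 probe set read 10.7 and 9.3 with Men1, against 7.2 and 17.7 with vector, at control level on all arrays, and no fold is given for it. Lbr read 387.3 and 454.4 with Men1, against 486.3 and 462.9 with vector (-0.17, SE 0.18), a smaller difference than its SE.

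The next 3 enzymes take away the paired methyl groups of the sterol. Msmo1, the methyl sterol oxidase that starts this, read 162.8 and 160.3 with Men1, against 338.4 and 316.8 with vector. Its means were 162 ± 1.77 and 328 ± 15.3 (SD, n = 2 each), a ratio of 0.493, and its log2 difference was -0.95 (SE 0.17). Of the 13 probe sets above the controls it had the most alike Men1 arrays, which differed by 0.02, and the vector arrays differed by 0.09. For this gene all 4 differences between a Men1 and a vector array lay between -1.01 and -0.90.

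Nsdhl, the dehydrogenase that removes the oxidised carbon, had 3 probe sets. The brightest, whose _g_at suffix marks probes common to a group of sequences, read 152.7 and 148.8 with Men1, against 264.6 and 220.5 with vector (-0.63, SE 0.19). The second read 108.0 and 115.7 with Men1, against 126.7 and 202.5 with vector (-0.47, SE 0.26). The groups were apart in both, but vector replicate 1 was the higher vector array in the first and vector replicate 2 in the second.

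The third Nsdhl probe set read 84.5 and 65.3 with Men1, against 190.5 and 122.6 with vector (-0.90, SE 0.27), again with vector replicate 1 higher. The probe sets of this gene therefore shared the direction, with differences from -0.90 to -0.47, and did not share which vector array was higher. The second rested on vector replicate 2: without that array its difference was -0.16, and without vector replicate 1 it was -0.77.

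Hsd17b7, the ketosteroid reductase that completes the demethylation and is also known as a 17-beta-hydroxysteroid dehydrogenase, read 67.8 and 59.7 with Men1, against 116.8 and 90.4 with vector. The means were 63.8 ± 5.73 and 104 ± 18.7 (SD, n = 2 each), and the log2 difference was -0.58 (SE 0.20). The groups were apart and the vector arrays were the more spread.

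The last enzymes move and reduce double bonds of the ring. Ebp, the isomerase that shifts a ring double bond and binds many drugs, read 74.0 and 70.5 with Men1, against 77.0 and 77.7 with vector. These 4 signals lay within a few units of each other, and the difference of -0.08 was smaller than its SE of 0.17. Both Men1 signals were below both vector signals, with a ratio of means of 0.934.

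Sc5d, a desaturase that puts a new double bond into the ring, had 2 probe sets, each with a suffix that describes its probes. The brighter (_i_at, a reduced number of probes) read 69.8 and 41.0 with Men1, against 101.2 and 62.4 with vector (-0.45, SE 0.31). The other (_f_at, probes shared by a sequence family) read 34.4 and 31.4 with Men1, against 51.1 and 31.3 with vector (-0.20, SE 0.23). The groups overlapped in both, and in the first the arrays numbered 1 were higher in either group, by 0.59 with Men1 and 0.58 with vector.

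For the brighter Sc5d probe set the arrays with the same number differed by -0.45 and -0.46, the most alike pairs of all 14 probe sets. The other 2 combinations of a Men1 and a vector array gave 0.13 and -1.04. Leaving out single arrays moved it between -0.75 and -0.16, and the dimmer probe set reached 0.047 without vector replicate 1.

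Dhcr7, which reduces the last ring double bond and is mutated in Smith-Lemli-Opitz syndrome, read 66.4 and 74.1 with Men1, against 95.2 and 115.7 with vector. Its means were 70.3 ± 5.44 and 105 ± 14.5 (SD, n = 2 each), a ratio of 0.666. The groups were apart, with a difference of -0.49 (SE 0.19).

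**Figure D3:**
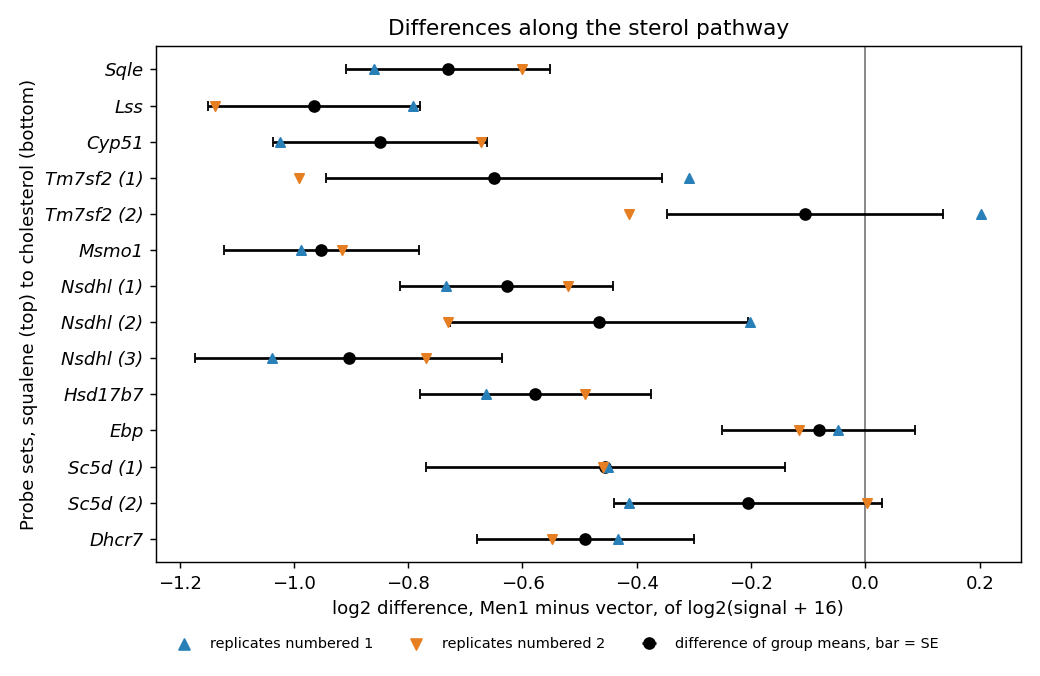
Log2 difference, Men1 minus vector, of each probe set from squalene (top) to cholesterol (bottom), as the difference of group means (circles, bars are the SE) and for the arrays numbered 1 and 2 (triangles). All 14 means lie below 0, and the numbered pairs lie close together for Msmo1 and far apart for both Tm7sf2 probe sets.

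Taking 1 probe set a gene, the one with the highest mean, the differences of the 5 genes from Sqle to Msmo1 ran from -0.97 to -0.65, with a median of -0.85. Those of the 5 genes from Nsdhl to Dhcr7 ran from -0.63 to -0.08, with a median of -0.49. The ranges did not meet, although the values of Tm7sf2 (-0.65) and Nsdhl (-0.63), next to the border, lay well within 1 SE of each other. The gap rests on the brightest probe sets and on all arrays: the third Nsdhl probe set (-0.90) lies inside the range of the first stretch. Without vector replicate 2 Tm7sf2 was at -0.27 while Nsdhl was at -0.75 and Hsd17b7 and Sc5d at -0.74, so that the ranges crossed. The ranges also crossed without Men1 replicate 1, with Tm7sf2 at -0.62 and Sc5d at -0.75. This division of the pathway was made after the values were seen. Within the groups, the median absolute difference between arrays was 0.10 with Men1 and 0.28 with vector for the 14 probe sets, and 0.20 and 0.31 over all probe sets. The vector arrays were thus the more spread in both sets. Median differences for the 4 combinations of a Men1 and a vector array, which share arrays, lay between -0.76 and -0.56 for the enzymes, with 12 to 13 of 14 below 0. For all probe sets the medians lay between -0.08 and 0.05, with 41.7% to 59.9% below 0.

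Genes of the earlier stretch, mevalonate to squalene, were described for comparison from the same arrays, and their values rest on the same contrast. With the brightest probe set of each gene, 7 of the 7 measured were lower with Men1, 5 of them without overlap, where 12.0% of all 8251 named genes were, and the median difference was -0.76, against -0.64 for the 10 enzymes after squalene with 1 probe set a gene. Over all named genes it was -0.01, and 4372 of the 8251 were lower with Men1. Dimmer probe sets did not all share the direction, since 1 of Fdps, farnesyl diphosphate synthase, differed by 0.24 with the Men1 signals higher without overlap, against -0.98 for its brightest. That dim probe set read 29.5 and 27.2 with Men1, against 22.8 and 20.2 with vector. These signals are close to the controls, and 1 of the Men1 signals was at control level, so its direction carries little. Idi1, which makes dimethylallyl diphosphate, differed by -1.18 (SE 0.17). Fdft1, squalene synthase, which makes the substrate of Sqle, read 199.9 and 230.7 with Men1, against 316.6 and 347.3 with vector (-0.59, SE 0.18), and Sqle itself differed by -0.73. Ggps1, on the branch to protein prenylation, differed by -0.02 (SE 0.21) in its brighter probe set and by -0.15 (SE 0.17) in the other.

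Genes of related sterol enzymes and electron donors, a list outside the 10 enzymes, differed less. The list includes Lbr, which shares the activity of Tm7sf2. Of 6 measured, 6 were lower with Men1, 3 of them without overlap, where 12.0% of all named genes were. Their median was -0.09, with a range from -0.19 to -0.03. Of the 10 enzymes, 9 differed by more than all 6 of them, but this contrast had proposed the enzymes. The heme-binding protein Pgrmc1, a partner of cytochromes P450 such as Cyp51, read 239.2 and 286.3 with Men1, against 303.4 and 298.1 with vector (-0.19, SE 0.19). Cyb5r3, which passes electrons through cytochrome b5 to enzymes such as Msmo1 and Sc5d, differed by -0.10 (SE 0.19), and the cytochrome Cyb5a by -0.08 (SE 0.19). Erg28, a scaffold of the demethylation enzymes in yeast, differed by -0.09 (SE 0.33). Each of these named differences was about as large as its SE or smaller.

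Among 8 measured genes of sterol sensing, uptake and efflux, 3 were higher and 5 lower (median -0.10). Of the 8, 2 were lower without overlap, where 12.0% of all named genes were. Of the 3 higher ones Insig1 and Nr1h3 were at control level on all arrays, so their direction carries nothing. Abcg1, a sterol efflux transporter, read 15.8 and 58.2 with Men1, against 59.9 and 109.2 with vector (-1.005, SE 0.48), a difference as large as those of Lss and Msmo1 with more spread, and 1 of its Men1 signals was at control level. Of 8 measured genes of fatty acid synthesis, 8 were lower, with a median of -0.31. Among them 3 were lower without overlap, where 12.0% of all named genes were. Scd1, a stearoyl-CoA desaturase, differed by -0.91 (SE 0.33), in the range of Lss and Msmo1 but with more spread, and the elongase Elovl6 by -0.51 (SE 0.20). Both values are from the brightest probe set. In the next brightest the groups overlapped, with differences of -0.98 (SE 0.58) for Scd1 and -0.32 (SE 0.27) for Elovl6. The related desaturase Scd2 differed by -0.45 (SE 0.17), like the brighter Sc5d probe set, whereas Fasn, fatty acid synthase, differed by -0.05 (SE 0.18), like Ebp. Of the 3 measured genes of sterol use, 1 was higher and 2 lower (median -0.03). Hsd3b7, an enzyme of bile acid synthesis and the only one of them above the controls on all arrays, read 76.8 and 59.3 with Men1, against 66.8 and 72.5 with vector.

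**Figure D4:**
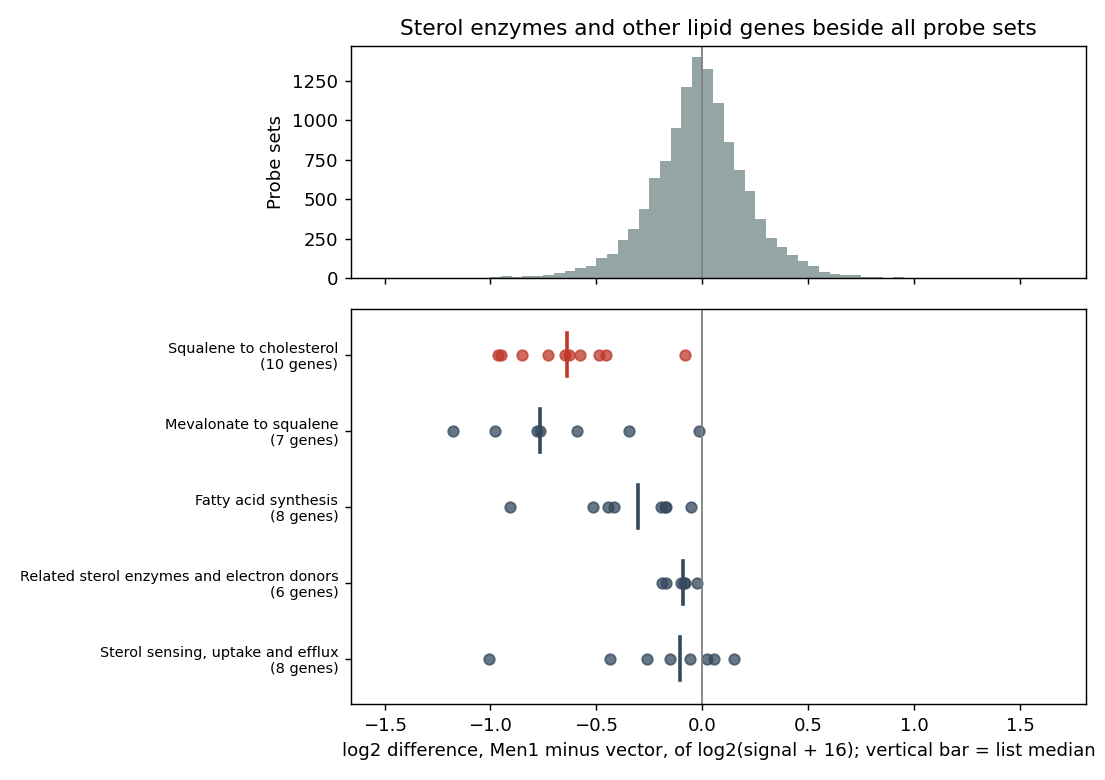
Upper panel, number of probe sets by log2 difference (Men1 minus vector). Lower panel, the same difference for the brightest probe set of each gene in 5 lists, with a vertical bar at the list median. The enzymes after squalene (red) have a median of -0.64, and the related enzymes and electron donors one of -0.09.

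The pattern over the 4 arrays was also compared with that of other genes. Each probe set's log2 values were centred on their mean, and the mean over the 10 enzymes was -0.29 and -0.35 for Men1 and 0.34 and 0.30 for vector. Measured against the mean of the other 9, Nsdhl (Euclidean distance 0.16) and Sqle (0.19) lay nearest among the enzymes, and Tm7sf2 and Sc5d (both 0.63) farthest, with Ebp at 0.62. Among 5456 other genes above the controls on all arrays, the 8 nearest to the mean of the 10 were Wdr6 (0.17), Mrpl16 (0.18), Jpt1 (0.19), B4galt2 (0.19), Scd2 (0.19), Tipin (0.19), Ddt (0.20) and Tnni1 (0.21). Their log2 differences lay between -0.59 and -0.44. Fdft1 followed at rank 9 (0.22), whereas Idi1, with its larger difference, stood at rank 791 (0.55). A small distance over 4 arrays describes these arrays and says nothing of shared control.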

How the data were processed

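RNA of 4 samples was measured on 1-colour Affymetrix arrays, 2 per group. As deposited, each probe set has an intensity on a linear scale. The submitters' processing notes name MAS5 and Affymetrix Expression Console; versions and scaling target are not given in the sources used here. Trimmed mean signals were 150.07 to 150.08, so the authors' scaling was by whole array, and no change of total RNA per cell can be seen. Median signals were 50.0 to 62.4. The number of arrays limits the precision.

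The 66 control probe sets were left out, and 12422 were analysed as log2(signal + 16), which understates the change of dim probe sets. Of these, 10833 had 1 gene symbol, 396 had several and 1193 none. Symbols were updated through gene IDs (10817 found in GRCm38.p6). A two-sided comparison by limma (3.58.1, R 4.3.3, lmFit, then eBayes) used Benjamini-Hochberg adjustment over all probe sets (prior degrees of freedom 2.87), after a test on simulated data. That test required added changes to be called only at a residual SD below that of these data, so it does not show the power here. SEs come from this fit. A probe set is called at control level where it does not exceed the highest of 19 unspiked control probe sets. All probe sets of the 10 enzymes are named, genes of the other lists were chosen for their role, and the nearest patterns are the 8 smallest distances. The enzymes, lists and motifs were chosen with earlier results of these data known. Alternatives were the added constant, normalization, a filter on dim probe sets, the variance prior, replicate number as a block, single arrays left out and the choice of probe sets.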

Additional observations from a re-analysis of the deposited data

How the results depend on the processing

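Median centring and the leaving out of dim or suffixed probe sets were chosen after seeing the data. In every setting run, 0 probe sets passed the limma threshold, with a lowest adjusted p of 0.576, without vector replicate 1. The number at an unadjusted p under 0.05 was 233 as reported, 130 among the 9258 probe sets above the controls on at least 1 array, and 121 to 1031 without single arrays (121 and 131 without Men1 replicates 1 and 2, 1031 and 559 without vector replicates 1 and 2). A group left with 1 array took its spread from the other group. The cause was not tested.

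The median over the enzyme probe sets was -0.42 with a constant of 64, which shrinks differences by construction, -0.68 with a constant of 1, -0.56 after quantile normalization, -0.59 after median centring, -0.64 with 1 probe set a gene, and -0.74 to -0.58 without single arrays. Lower signals without overlap were found for 9 of 10 probe sets with 1 a gene, and for 10 to 13 in the other settings, where 11.5% to 12.5% of all probe sets were lower without overlap with all arrays, and 25.8% to 46.2% without single arrays. With the block, 12 of 14 were lower in both numbered pairs, against 22.5% of all. With all arrays kept, 7 values of single enzyme probe sets moved by more than 1 SD, each with a changed constant. Lss had the lowest value as reported, but Msmo1 was lower with a constant of 64 (-0.80, Lss -0.76). The third Nsdhl probe set was lower without vector replicate 2 (-1.19, Lss -0.87) and without Men1 replicate 1 (-1.06, Lss -1.05). Without Men1 replicate 2, Msmo1 (-0.94) and Cyp51 (-0.92) were lower than Lss (-0.88). Leaving out 1 of 2 arrays moved a difference by at most the spread of that group, which tests little, yet moved the brighter Tm7sf2 and Sc5d and the second Nsdhl probe sets by over 1.5 times, and 2 values changed sign. The dimmer Sc5d probe set ranged from -0.46 to 0.047 (0.047 without vector replicate 1) and the dimmer Tm7sf2 probe set, at control level, from -0.37 to 0.16 (0.16 without vector replicate 2). Ebp was -0.05 without Men1 replicate 2. With replicate number as a block the median was -0.60 and 297 probe sets had an unadjusted p under 0.05. Deviations of same-numbered arrays correlated at 0.26 over 12422 probe sets. With 2 pairs this does not show that the numbers pair the samples.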
